A study of Mus musculus with 20 samples.

Results

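The subject is a set of 9 genes that encode enzymes of the last part of cholesterol synthesis, from squalene to cholesterol, in mouse liver: Sqle, Lss, Cyp51, Tm7sf2, Msmo1, Nsdhl, Hsd17b7, Sc5d and Dhcr7. They were chosen by symbol, in pathway order, and all 9 are among the 25238 genes listed in both count tables and passed the filter on low counts in every fit. RNA came from 20 livers of male C57BL/6J mice, which received at 8 weeks of age, by vein, an AAV8 vector whose thyroxine binding globulin promoter is active in hepatocytes, and then a diet labelled HF/HS until 25 weeks. In the knockdown experiment the vector of 5 livers held a hairpin RNA that targets Pklr (shPKLR), and that of 5 control livers a hairpin that targets firefly luciferase (shLUC). In the overexpression experiment the vector of 5 livers held the Pklr cDNA (PKLR), and that of 5 control livers the GFP gene (GFP). All 4 groups thus share the vector type, the promoter and the diet, and no group without a vector was analysed here. Pklr encodes the pyruvate kinase of liver and red cells, and the series asks what it does in fatty liver disease.

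Cholesterol is built in the endoplasmic reticulum. The mevalonate pathway yields squalene, squalene is oxidised and closed into lanosterol, the first sterol, and lanosterol is then stripped of methyl groups and its double bonds are moved or reduced. The liver is a main site of this synthesis. When sterols in the membrane are low, the transcription factor SREBP-2, encoded by Srebf2, is known to be released by proteolysis and to bind, together with the CCAAT-binding factor NF-Y, to the promoters of nearly all of these genes.

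Depth was between 29933820 and 45413803 counts per library, except 167891680 counts in shPKLR replicate 4, and the smallest count of any member in any liver was 148 (Sqle in a GFP liver). The targeted gene matched the labels in all 20 livers: Pklr was between 24.4 and 80.5 CPM (counts per 1e6 of the scaled library) with shPKLR, against 343 to 616 CPM with shLUC, and between 389 and 945 CPM with PKLR, against 66.7 to 148 CPM with GFP. Hepatocyte markers were abundant in all groups, with 6 genes summing to between 63950 and 120800 CPM. Of 9 marker lists of other cells, 1 gene passed the test in either experiment, a marker of dividing cells that fell with PKLR. The 2 adipocyte genes were too low in most livers to be tested. Their sum reached 5.85 CPM in shPKLR replicate 2 (group median 0.06) and 1.91 CPM in shLUC replicate 3 (group median 0.03). That shPKLR liver also had the lowest hepatocyte, macrophage, and stellate and matrix sums of its group. The sum of 5 dividing-cell genes ran from 4.22 to 10.5 CPM with PKLR and from 7.20 to 95.2 CPM with GFP, highest in GFP replicate 1. Stellate cell and matrix genes summed to between 130 and 253 CPM with PKLR, against 200 to 431 CPM with GFP. Lymphocyte markers summed to between 9.98 and 23.2 CPM with shPKLR, against 17.1 to 45.0 CPM with shLUC, although 5 of the 6 genes had a log2 fold change above 0. Macrophage markers, with 7 of 7 log2 fold changes above 0 in the knockdown, summed to between 102.5 and 280 CPM with shPKLR, against 113 to 206 CPM with shLUC. The part of these cells in the results below was not tested. In such bulk samples fewer cells of a type and less RNA per cell cannot be told apart.

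In the knockdown every one of the 9 enzymes was lower in shPKLR livers, liver by liver: for all 9 the highest shPKLR liver lay below the lowest shLUC liver. Means in shPKLR livers were between 32% (Sqle) and 60.7% (Tm7sf2) of the shLUC means. Over all genes tested, groups that did not overlap in that direction made up 2.03%. The median log2 fold change of the members was -1.03, against 0.02 over all 15611 genes tested. Tests were made in edgeR, with p-values adjusted over all genes and calls at 0.05, and each SE is that of the log2 fold change. No member passed in the knockdown, where calls in that direction made up 0.00641% of genes (1 gene, Pklr); the members' adjusted p-values lay between 0.109 and 0.230. All 9 had an unadjusted p under 0.05, as did 5.66% of all genes in that direction. The number called by other tools was 9 in DESeq2, which called 259 of 17076 genes in all, and 0 in limma-voom.

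In the overexpression the 9 enzymes had higher means with PKLR, between 1.34 (Tm7sf2) and 3.89 (Sqle) times the GFP means. Lss and Hsd17b7 rose; genes called higher made up 1.19% of the 15842 tested. An unadjusted p under 0.05 was reached by 8 members, all but Tm7sf2, and by 9.68% of all genes in that direction. For 5 members, Sqle, Lss, Nsdhl, Hsd17b7 and Sc5d, all PKLR livers lay above all GFP livers, as for 3.1% of all genes, and these 5 are also apart in the knockdown, which 0.434% of the genes tested in both experiments were. Scaled by library totals alone, 1 member in place of 5 had PKLR livers all above GFP livers. A negative log2 fold change in the knockdown with a positive one in the overexpression was seen in 9 of 9 members and in 31.3% of those genes. The members' median log2 fold change was 0.84, against 0.01 over all genes. The 2 calls rest on few livers: without GFP replicate 2, the control liver with the highest levels, 5 members were called and 8 had groups that did not overlap, while without any single other liver the number called was 0 (or 1, without PKLR replicate 5). DESeq2 called 8 members, all but Tm7sf2, and 1171 of 17103 genes in all.

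**Figure D1:**
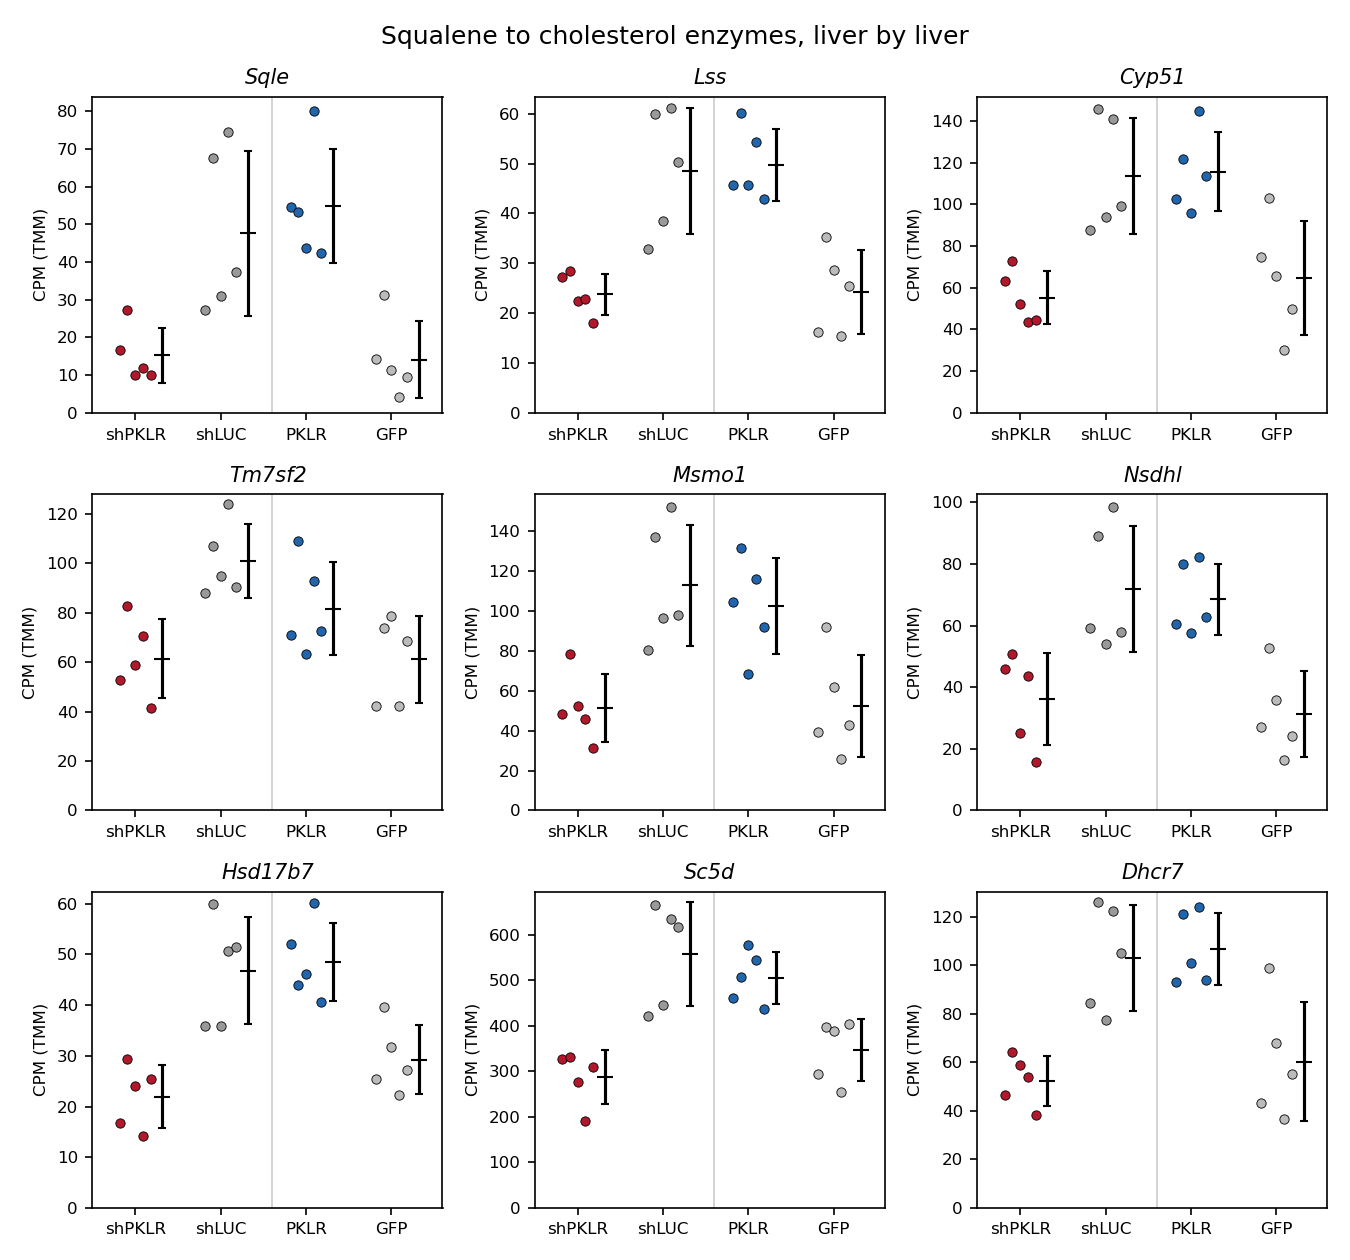
TMM-scaled CPM of the 9 enzymes in pathway order, 1 panel per gene; each point is a liver, bars are mean ± SD (n = 5), and the grey line parts the 2 experiments. In every panel the shPKLR points lie below all shLUC points, though Sqle and Msmo1 overlap with library totals alone. In the Sqle, Lss, Nsdhl, Hsd17b7 and Sc5d panels the PKLR points lie above all GFP points (1 member in place of 5 with library totals alone).

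Promoters were read for 8 of the 9 members, from RefSeq on GRCm38.p6; Sqle had no entry. In the 250 bases before the listed starts, the NF-Y box CCAAT occurred on either strand in 8 of 8 members (at 1 of the 3 starts listed for Dhcr7), and in 33.8% of all 32851 promoters of that length. The Sp1 box GGGCGG was also present in 8 of 8, and in 32.7% of all promoters. A member was counted if any of its listed starts held the box, while the percentages count each promoter on its own. The SREBP consensus TCACNCCAC was found in 0 of 8 members and in 1.05% of all promoters. Overlaps between motifs were allowed, and a match of letters shows no binding. Nor does a missing match show that a site is absent, since only these exact sequences and these 250 bases were searched. Shown are the stretches free of annotated exons for the called genes Lss and Hsd17b7 and for Nsdhl and Sc5d, which are also apart between PKLR and GFP livers, 5′ to 3′ on the strand of the gene, with the NF-Y boxes in capitals (ATTGG is CCAAT on the other strand).
Lss, chr10:76531355-76531587, plus strand: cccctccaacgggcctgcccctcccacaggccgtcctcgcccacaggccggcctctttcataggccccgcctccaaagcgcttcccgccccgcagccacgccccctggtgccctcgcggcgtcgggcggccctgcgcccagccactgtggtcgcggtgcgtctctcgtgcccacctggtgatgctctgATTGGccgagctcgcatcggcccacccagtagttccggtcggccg
Hsd17b7, chr1:169969242-169969408, minus strand: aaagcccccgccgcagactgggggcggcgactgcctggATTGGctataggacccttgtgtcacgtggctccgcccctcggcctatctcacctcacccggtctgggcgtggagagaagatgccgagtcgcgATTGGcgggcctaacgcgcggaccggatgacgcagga
Nsdhl, chrX:72918412-72918520, plus strand: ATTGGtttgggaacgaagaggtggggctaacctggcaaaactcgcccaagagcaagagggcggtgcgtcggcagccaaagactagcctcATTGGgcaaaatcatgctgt
Sc5d, chr9:42264301-42264550, minus strand: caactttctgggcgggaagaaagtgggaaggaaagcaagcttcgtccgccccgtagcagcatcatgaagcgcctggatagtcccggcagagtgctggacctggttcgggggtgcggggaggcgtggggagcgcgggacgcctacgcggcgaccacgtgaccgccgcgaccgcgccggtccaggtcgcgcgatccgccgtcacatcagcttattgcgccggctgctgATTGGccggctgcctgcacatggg
Hsd17b7 and Nsdhl thus hold 2 NF-Y boxes each in the stretch shown, and Lss and Sc5d 1 each.

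The first 2 enzymes turn squalene into lanosterol. Sqle (ENSMUSG00000022351; GRCm38 chromosome 15, 59315077 to 59331192, plus strand) encodes squalene epoxidase, a rate-limiting step of the pathway. It had 16.8, 27.2, 10.1, 12.0 and 10.1 CPM in shPKLR livers, against 27.3, 67.4, 31.1, 74.6 and 37.4 CPM in shLUC livers. It had 54.5, 53.3, 43.6, 80.06 and 42.5 CPM in PKLR livers, against 14.2, 31.2, 11.4, 4.13 and 9.52 CPM in GFP livers. The gap in the knockdown was narrow, since shPKLR replicate 2 lay just under shLUC replicate 1, and it closed with library totals alone. The gap in the overexpression was wider. Sqle had the largest log2 fold change of the 9 in both experiments. It was -1.65 with shPKLR (SE 0.34, adjusted p = 0.132). With PKLR it was 1.96 (SE 0.44, adjusted p = 0.0538), and Sqle passed in neither.

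Lss (ENSMUSG00000033105; chromosome 10, 76531588 to 76557138, plus strand) encodes lanosterol synthase, which folds the epoxide into the sterol rings. It was at 27.2, 28.4, 22.5, 22.8 and 18.1 CPM in shPKLR livers, against 32.9, 59.9, 38.4, 61.1 and 50.3 CPM in shLUC livers (log2 fold change -1.03, SE 0.19, adjusted p = 0.109). It rose to 45.6, 60.2, 45.8, 54.2 and 43.0 CPM in PKLR livers, against 16.2, 35.2, 28.7, 15.4 and 25.5 CPM in GFP livers (log2 fold change 1.04, SE 0.22, adjusted p = 0.0386). No PKLR liver reached down to the highest GFP liver, replicate 2. An antisense gene shares 3.53% of the Lss exon bases, and whether reads were counted by strand is not given in the sources used here.

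Lanosterol then loses a methyl group and gains a double bond through Cyp51 (ENSMUSG00000001467; chromosome 5, 4081145 to 4104746, minus strand), a cytochrome P450 and the target of azole drugs in fungi. Cyp51 was at 63.4, 72.8, 52.1, 43.4 and 44.3 CPM in shPKLR livers, against 87.5, 146, 94.1, 141 and 99.1 CPM in shLUC livers (log2 fold change -1.04, SE 0.19, adjusted p = 0.109). It was at 102, 122, 95.6, 145 and 114 CPM in PKLR livers, against 74.5, 103, 65.5, 30.03 and 49.7 CPM in GFP livers (log2 fold change 0.84, SE 0.27, adjusted p = 0.128). The overlap in the overexpression came from GFP replicate 2, which stood just above 2 PKLR livers. Akap9, on the other strand, shares 3.76% of the Cyp51 exon bases.

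Tm7sf2 (ENSMUSG00000024799; chromosome 19, 6062821 to 6068373, minus strand) encodes a sterol reductase that acts on the double bond left by Cyp51; the lamin B receptor gene Lbr encodes a protein with the same activity. Tm7sf2 had the smallest differences of the 9. It was at 52.9, 82.8, 58.7, 70.8 and 41.6 CPM in shPKLR livers, against 88.1, 107, 95.1, 124 and 90.6 CPM in shLUC livers (log2 fold change -0.72, SE 0.18, adjusted p = 0.194). It was at 71.0, 109, 63.2, 92.8 and 72.6 CPM in PKLR livers, against 42.4, 73.8, 78.5, 42.4 and 68.5 CPM in GFP livers (log2 fold change 0.42, SE 0.21, adjusted p = 0.315). PKLR and GFP livers were mixed in order, with 2 of 5 PKLR livers above the highest GFP liver. Vps51, on the same strand, shares 12.1% of the Tm7sf2 exon bases, so Tm7sf2 counts may hold reads of Vps51.

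Msmo1, Nsdhl and Hsd17b7 encode the enzymes that act in turn to remove the remaining pair of methyl groups: a methylsterol oxidase, a decarboxylating sterol dehydrogenase and a ketosteroid reductase. Msmo1 (ENSMUSG00000031604; chromosome 8, 64718139 to 64733792, minus strand) ranged from 31.5 to 78.7 CPM in shPKLR livers, against 80.3 to 152 CPM in shLUC livers (log2 fold change -1.14, SE 0.24, adjusted p = 0.132). It ranged from 68.7 to 132 CPM in PKLR livers, against 25.6 to 92.0 CPM in GFP livers (log2 fold change 0.97, SE 0.31, adjusted p = 0.128). PKLR replicates 3 and 5 lay under GFP replicate 2, and the other 3 PKLR livers lay above every GFP liver.

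Nsdhl (ENSMUSG00000031349; chromosome X, 72918557 to 72958514, plus strand) was at 46.0, 50.6, 25.2, 43.6 and 15.7 CPM in shPKLR livers, against 59.2, 89.2, 54.1, 98.6 and 58.0 CPM in shLUC livers. It was at 60.7, 79.9, 57.5, 82.1 and 62.8 CPM in PKLR livers, against 27.0, 52.9, 35.8, 16.5 and 24.3 CPM in GFP livers. Neither pair of groups overlapped, though 3 of the shPKLR livers came close to the shLUC livers. With shPKLR its log2 fold change was -0.99 (SE 0.30, adjusted p = 0.230). With PKLR it was 1.13 (SE 0.27, adjusted p = 0.0626).

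Hsd17b7 (ENSMUSG00000026675; chromosome 1, 169949535 to 169969241, minus strand) was at 16.8, 29.3, 24.1, 14.3 and 25.4 CPM in shPKLR livers, against 35.9, 59.9, 36.0, 50.8 and 51.5 CPM in shLUC livers (log2 fold change -1.09, SE 0.21, adjusted p = 0.109). It rose to 52.1, 43.9, 46.1, 60.1 and 40.7 CPM in PKLR livers, against 25.4, 39.7, 31.7, 22.3 and 27.2 CPM in GFP livers (log2 fold change 0.73, SE 0.15, adjusted p = 0.0371). The lowest PKLR liver stood just above the highest GFP liver.

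Sc5d and Dhcr7 encode a desaturase that makes 7-dehydrocholesterol, also the precursor of vitamin D, and the reductase that turns it into cholesterol. Sc5d (ENSMUSG00000032018; chromosome 9, 42251595 to 42264256, minus strand) was at 328, 332, 276, 189.8 and 309 CPM in shPKLR livers, against 421, 664, 446, 635 and 617 CPM in shLUC livers (log2 fold change -0.96, SE 0.19, adjusted p = 0.109). It was at 460.0, 506, 576, 543 and 437 CPM in PKLR livers, against 294, 396, 388, 255 and 403 CPM in GFP livers (log2 fold change 0.54, SE 0.14, adjusted p = 0.0740). Both pairs of groups were apart, although its log2 fold change with PKLR was the second smallest of the 9. Dhcr7 (ENSMUSG00000058454; chromosome 7, 143823145 to 143848410, plus strand) ranged from 38.2 to 64.2 CPM in shPKLR livers, against 77.4 to 126 CPM in shLUC livers (log2 fold change -0.98, SE 0.18, adjusted p = 0.109). With PKLR it ranged from 93.2 to 124 CPM, against 36.5 to 98.7 CPM with GFP (log2 fold change 0.82, SE 0.24, adjusted p = 0.103). GFP replicate 2 was the only GFP liver within the PKLR range.

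Per kilobase of annotated exon, levels among the 9 differed widely. Sc5d had the highest mean level in every group, at 59.0 ± 12.0 CPM per kilobase with shPKLR, 114 ± 23.4 with shLUC, 104 ± 11.8 with PKLR and 71.4 ± 14.0 with GFP (SD, n = 5 each). Lss had the lowest, at 2.21 ± 0.382 with shPKLR, 4.498 ± 1.17 with shLUC, 4.61 ± 0.669 with PKLR and 2.24 ± 0.780 CPM per kilobase with GFP (SD, n = 5 each). Cyp51, Nsdhl, Tm7sf2, Msmo1 and Dhcr7 lay between, with means of 16.7 to 26.2 CPM per kilobase in PKLR livers. Cyp51 and Nsdhl there differed by less than their SDs, as did Tm7sf2, Dhcr7 and Msmo1 from one another, while Nsdhl lay above Tm7sf2 by more than either SD. Hsd17b7 and Sqle followed at 9.52 ± 1.51 and 9.88 ± 2.73 CPM per kilobase in PKLR livers, also within their SDs. The exon length counted here covers all annotated transcripts; over the principal transcript alone, a choice made after seeing the data, Sc5d remained the highest in each group, while the order of the others changed and Hsd17b7 or Sqle came last.

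Both experiments were then set against each other in a model of all 20 livers and 16407 genes, in which each effect is taken within its own experiment and the experiments share no livers. The PKLR effect less the shPKLR effect passed the test for all 9 enzymes, as it did for 2.75% of genes in that direction. The differences of log2 fold changes came to 3.58 for Sqle (SE 0.58, adjusted p = 0.00169). For Lss the difference was 2.04 (SE 0.30, adjusted p = 0.000974), and for Cyp51 1.86 (SE 0.34, adjusted p = 0.00385). Tm7sf2 had the smallest, 1.11 (SE 0.29, adjusted p = 0.0283), and the others lay between 1.47 (Sc5d) and 2.10 (Nsdhl). Of the 20 fits with 1 liver left out, 18 kept all 9 past the threshold. Tm7sf2 missed it without shLUC replicate 2 (adjusted p = 0.0529) and without PKLR replicate 4 (adjusted p = 0.0507). The median over all genes of this difference was -0.06.

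Whether the loss and the gain were of unequal size was tested by the sum of the same effects, which would be 0 for equal and opposite changes. In edgeR no member passed, and 0% of all genes were called. An unadjusted p under 0.05 was found for 0 of 9 members, and for 5.29% of genes with a positive and 4.22% with a negative sum; DESeq2 and limma-voom also called 0 members. The sum for Lss was 0.01 (95% interval -0.61 to 0.62), for Sqle 0.31 (-0.87 to 1.49) and for Sc5d -0.42 (-0.92 to 0.08). The intervals leave room for effects that differ by more than 0.5 on the log2 scale in either direction for Sqle, Lss, Cyp51, Msmo1 and Nsdhl.

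**Figure D2:**
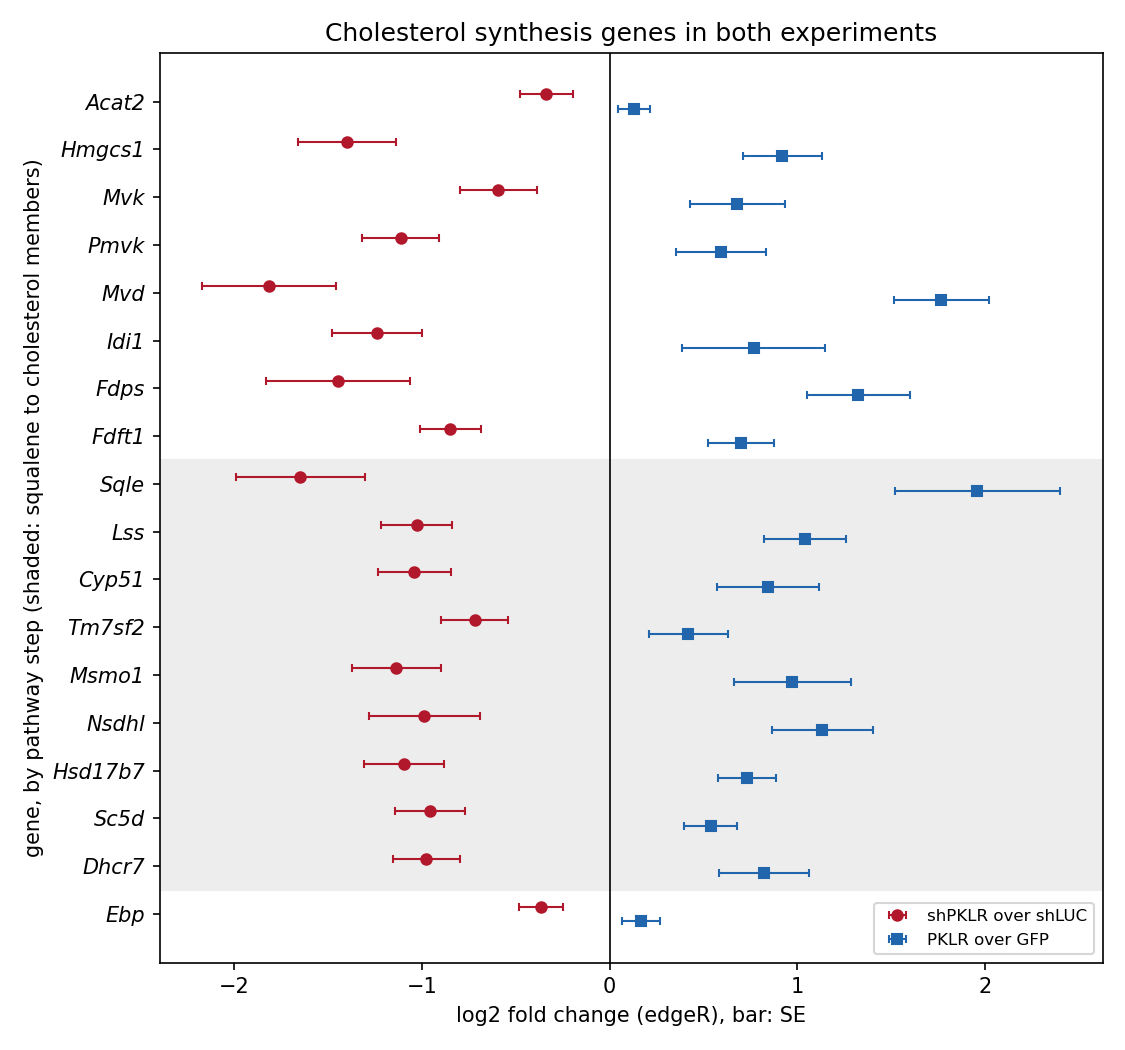
Log2 fold changes (edgeR, bars SE, n = 5 livers per group) of cholesterol synthesis genes. Red circles are shPKLR over shLUC, and blue squares are PKLR over GFP. Genes run in pathway order from the top, and the 9 squalene to cholesterol members are shaded. Ebp, a late-step gene outside the 9, is drawn at the bottom and not at its step. All 9 red circles of the shaded block lie below 0 and all 9 blue squares above it, with Sqle farthest out and Tm7sf2 nearest to 0 on the overexpression side.

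The control groups had different means, with ranges that overlapped for 6 of 9 members. Each table was scaled on its own, and the vector and the experiment cannot be told apart here, so these levels are set side by side with no test. Mean CPM in GFP livers was between 0.296 (Sqle) and 0.625 (Hsd17b7) times that in shLUC livers, lower for 9 of 9 members, and for Tm7sf2, Nsdhl and Sc5d the ranges of the control groups did not overlap. Levels in PKLR livers were close to those in shLUC livers, with ratios of the means between 0.809 (Tm7sf2) and 1.15 (Sqle). Levels in shPKLR livers were in turn between 0.751 (Hsd17b7) and 1.16 (Nsdhl) times those in GFP livers. Pklr itself was lower in GFP than in shLUC livers too, at 122 ± 35.3 CPM with GFP and 465 ± 112 CPM with shLUC (SD, n = 5 each), a ratio of 0.262.

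On the log2 scale, less the control mean of the same experiment, the median of the 9 was between -1.37 and -0.63 in shPKLR livers, against -0.36 to 0.35 in shLUC livers, and between 0.75 and 1.24 in PKLR livers, against -0.63 to 0.79 in GFP livers. Replicate 2 was the highest shPKLR liver for 9 of 9 members, while the lowest was replicate 5 for 6 members and replicate 4 for 3. Replicate 4 was the lowest GFP liver for 8 members and replicate 2 the highest for 7. GFP replicate 2, at 0.79, thus lay above PKLR replicate 3, at 0.75, while the other 4 GFP livers lay below all PKLR livers. The order was less uniform in PKLR livers: replicate 4 was the highest for 5 members, among them Sqle at 2.80, replicate 2 for 3 and replicate 3 for 1, and the lowest was replicate 5 for 5 members and replicate 3 for 4.

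**Figure D3:**
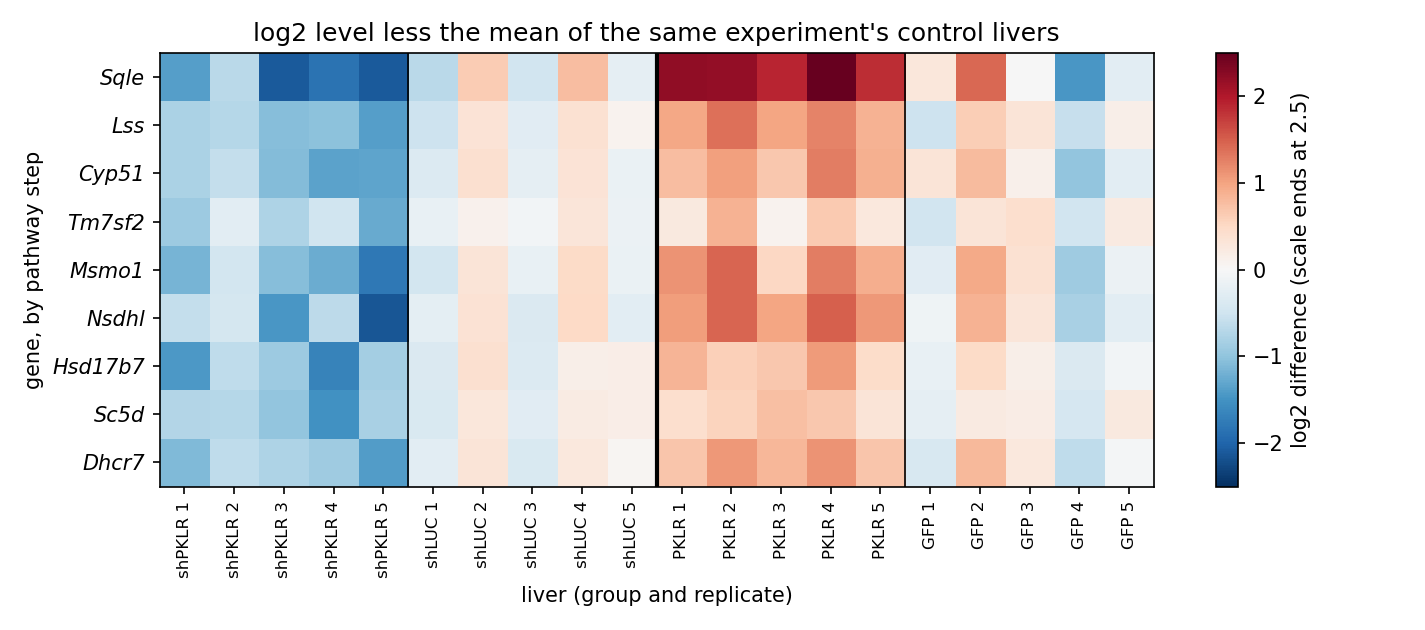
Log2 level of each enzyme (rows, in pathway order) in each of the 20 livers (columns), less the mean of the control livers of the same experiment; red is above and blue below that mean, and the thick line parts the experiments. The shPKLR columns are blue in every row and the PKLR columns red, and within the GFP block replicate 2 is red and replicate 4 blue in every row.

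The spread among livers of 1 group was wider for these genes than for a typical gene. In log2 units, the median SD of the 9 members was 0.38 in shPKLR livers and 0.35 in shLUC livers, beside 0.31 and 0.18 over the 11818 genes averaging 2 CPM or more. It was 0.24 in PKLR livers and 0.56 in GFP livers, beside 0.16 and 0.17 over those genes. Nsdhl varied most in shPKLR livers (SD 0.72), and Sqle in shLUC (SD 0.66), PKLR (SD 0.38) and GFP livers (SD 1.04). Within a liver the Sqle log2 level less that of Dhcr7 averaged -1.87 ± 0.52 with shPKLR, -1.21 ± 0.39 with shLUC, -0.99 ± 0.27 with PKLR and -2.30 ± 0.65 with GFP (SD, n = 5 each). All PKLR livers lay above all GFP livers in that measure, while shPKLR and shLUC livers overlapped.

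**Figure D4:**
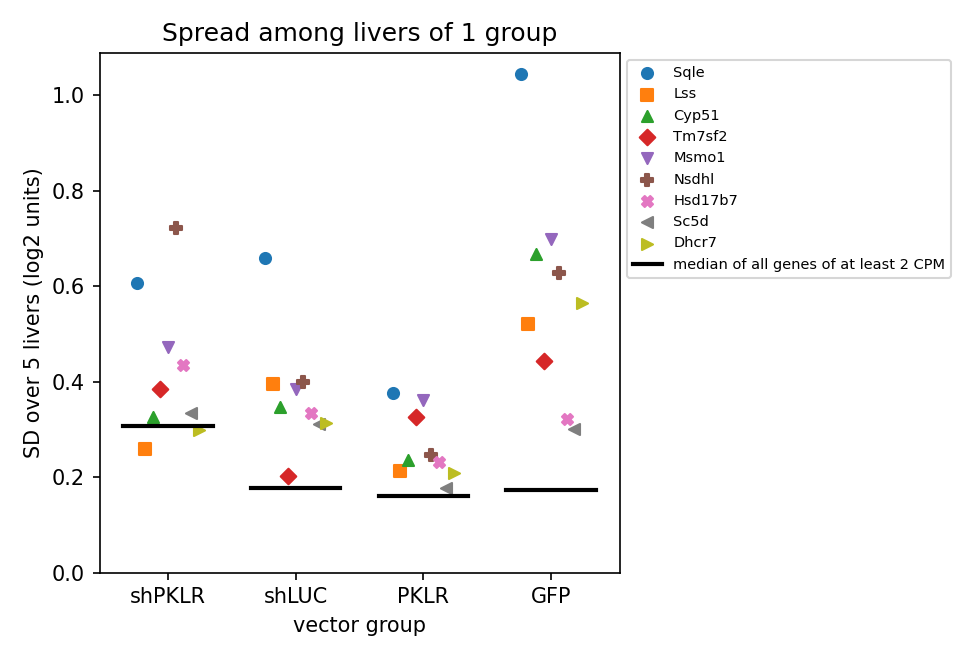
SD over the 5 livers of each vector group, in log2 units, for each of the 9 enzymes (coloured symbols); the black bar is the median SD of all genes averaging 2 CPM or more. In shLUC, PKLR and GFP livers all 9 symbols lie above the bar, and Sqle reaches 1.04 in GFP livers.

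The genes whose liver-by-liver pattern was most like the median of the 9 were sought among all genes of at least 2 CPM, by the root mean square difference in log2 level over the 20 livers. Of the members, Dhcr7 (0.14), Lss (0.15), Cyp51 (0.16) and Msmo1 (0.19) were nearest to their own median. Sqle was the farthest (0.78), at rank 4789 of the 11819 genes. The measure counts the size of a change as well as its order over livers, and Sqle had the largest log2 fold changes of the 9. Among the 10 nearest genes outside the 9 were Fdft1 (0.22), Pmvk (0.24), Hmgcs1 (0.24), Rdh11 (0.27), Idi1 (0.27), Insig1 (0.29), Mvk (0.31), Slc23a1 (0.33) and Stard4 (0.36), against a median distance of 0.80 over 11819 genes. Fdft1, Pmvk, Hmgcs1, Idi1 and Mvk are enzymes of the earlier steps, Insig1 and Stard4 encode a sterol sensor and a sterol carrier, Rdh11 encodes a retinol dehydrogenase, and Slc23a1 encodes a vitamin C transporter. Since the likeness measure uses the same livers, their levels are a description: Rdh11 averaged 66.6 ± 11.7 CPM with PKLR and 32.1 ± 6.09 CPM with GFP, and Slc23a1 75.8 ± 12.2 CPM with PKLR and 43.1 ± 9.70 CPM with GFP (SD, n = 5 each).

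Of 9 listed mevalonate pathway genes 4 rose with PKLR and 0 fell, while with shPKLR 8 had negative log2 fold changes, each with an unadjusted p under 0.05, and 0 were called in edgeR. Over all genes, 1.19% were called higher with PKLR, and 5.66% were lower with shPKLR at an unadjusted p under 0.05. Among the called genes were Mvd (1.77, SE 0.25, adjusted p = 0.0109), Fdps (1.32, SE 0.27, adjusted p = 0.0383) and Hmgcs1 (0.92, SE 0.21, adjusted p = 0.0494). With 1 liver left out, the call of Mvd held in 10 of 10 fits, that of Fdps in 3 and that of Hmgcs1 in 1. Ggps1, which makes geranylgeranyl diphosphate for other products than sterols, was the exception in the knockdown, with a log2 fold change of 0.38 (SE 0.16, adjusted p = 0.315). Fdft1, which makes squalene, had log2 fold changes of -0.85 (SE 0.16, adjusted p = 0.109) and 0.70 (SE 0.18, adjusted p = 0.0695).

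Ebp and Lbr, of the late steps outside the 9, passed in neither experiment. Ebp, a sterol isomerase, had log2 fold changes of -0.36 (SE 0.12) with shPKLR and 0.17 (SE 0.10) with PKLR, and its difference between experiments had an adjusted p of 0.0516. Lbr had log2 fold changes of -0.40 (SE 0.20) with shPKLR and 0.16 (SE 0.12) with PKLR.

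Among 9 sterol sensing genes 2 rose with PKLR, among them Stard4, which encodes the sterol carrier (0.75, SE 0.17, adjusted p = 0.0481). Genes called higher with PKLR made up 1.19% of all tested. The Stard4 call held in 2 of 10 fits with 1 liver left out. None of the 9 was called with shPKLR in edgeR, where 9 of 9 log2 fold changes were negative. An unadjusted p under 0.05 was found there for 7, and for 5.66% of all genes in that direction. Srebf2 was at 34.1 ± 8.97 CPM with shPKLR and 50.9 ± 5.39 CPM with shLUC, and at 56.5 ± 3.87 CPM with PKLR and 39.9 ± 8.12 CPM with GFP (SD, n = 5 each). In edgeR Srebf2 was called in neither experiment. Its log2 fold change was -0.58 with shPKLR (SE 0.17, adjusted p = 0.231) and 0.50 with PKLR (SE 0.12, adjusted p = 0.0595). Its difference between the experiments passed, at 1.06 (SE 0.22, adjusted p = 0.00968). Of 5 genes listed as redox partners of the sterol oxidations, none was called in either experiment in edgeR. There 2 had an unadjusted p under 0.05 with shPKLR, both lower, as did 5.66% of all genes in that direction. With PKLR 2 had such a p and were higher, as were 9.68% of all genes, and 1, Por, was lower. For the difference, Cyb5r3 (1.07, SE 0.19, adjusted p = 0.00257) and Cyb5b (0.83, SE 0.24, adjusted p = 0.0457) passed, as did 2.75% of all genes in that direction. Por, the electron donor of Sqle and Cyp51, was at 108 ± 24.9 CPM with PKLR and 171 ± 27.3 CPM with GFP (SD, n = 5 each). Its log2 fold change there was -0.67 (adjusted p = 0.0649, SE 0.16), not called and opposite in sign to those of Sqle and Cyp51.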

How the data were processed

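RNA-seq of 20 livers was analysed. Both count files, 1 per experiment, hold raw gene counts as deposited, with no normalization. The submitters' processing notes name HISAT2 and DESeq2, along with GRCm38 and mm10 as builds, and the labels' protocols name a stranded total RNA kit. Which counting program and annotation were used, and whether counting used strand, is not given in the sources used here. Columns were matched to samples by title, with 0 value columns left unmatched. Symbols, places and exon lengths came from GENCODE M21 (GRCm38).

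Genes were filtered with filterByExpr, scaled by TMM and tested with edgeR 4.0.16 (quasi-likelihood, robust, R 4.3.3) on 15611 knockdown, 15842 overexpression and 16407 joint genes, with Benjamini-Hochberg adjustment over all of them and calls at 0.05. The SE is the fold change divided by the square root of F. CPM are counts per 1e6 with TMM scaling; log2 levels by liver had a prior count of 2. Each group is described by mean ± SD over 5 livers. TMM factors ran from 0.875 to 1.14. Steps were tested on simulated counts. Alternatives were RLE factors, library totals, other filters, DESeq2 1.42.0, limma-voom (limma 3.58.1), a replicate block, 1 fit of all libraries and leaving out each library.

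The members and lists were chosen with earlier results of these data known. Named were the 9 members, Pklr, 4 other late-step genes, the called genes of 4 pathway lists with Srebf2 and Por, and the 10 genes nearest in liver-by-liver pattern, predicted genes passed over; a few of these are not reported here. Ggps1, Cyp7a1, Cyp27a1, Abca1, Nr1h3, Abcg5 and Abcg8 fall outside that rule and were chosen after their values were seen. Nothing in the labels says that livers shared a litter or batch.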

Additional observations from a re-analysis of the deposited data

How the results depend on the processing

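For the 9 members the sign of the log2 fold change was kept in 162 of 162 values over the alternatives in the knockdown, 162 of 162 in the overexpression and 243 of 243 for the difference. The number called did not hold. In the knockdown, 0 were called in the reported fit, 3 with no filter on low counts, 4 in 1 fit of all 20 libraries and 9 with DESeq2. In the overexpression, 2 were called in the reported fit, 0 with library totals, 1 with no filter, 4 with limma-voom and 8 with DESeq2, and between 0 and 5 with 1 library left out. Groups that did not overlap in the overexpression numbered 5 in the reported fit, 1 with library totals and 5 to 8 with 1 library left out. In the knockdown they numbered 9 with any 1 library left out, but Sqle and Msmo1 overlapped with library totals. Library totals moved the median of all genes to -0.12 in the overexpression and -0.21 for the difference. The cause of these shifts in the number called was not tested. Replicate numbers are shared between groups, but they are only numbers in the labels and were not taken as pairs. Same-numbered livers had correlations of their deviations from -0.28 to 0.44, a range that cannot decide whether livers were paired. With the replicate block 0 members were called in the knockdown, 1 in the overexpression and 9 for the difference. The sum of effects changed sign for Lss with RLE factors (-0.0041), library totals (-0.068) and DESeq2 (-0.0099). With 1 library left out it ran from -0.12 to 0.18 for Lss, -0.3824 to 0.0296 for Cyp51, -0.2923 to 0.0926 for Dhcr7, -0.37 to 0.14 for Msmo1, -0.0164 to 0.4172 for Nsdhl and -0.004 to 0.83 for Sqle. Por in the knockdown ran from -0.12 to 0.35. Taking the principal transcript length, a choice made after seeing the data, left Sc5d the highest per kilobase in 4 of 4 groups and Lss the lowest in 0. The smallest member count was 148, for Sqle in a GFP liver, and Sqle also varied most among GFP livers (SD 1.04 in log2 units).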

Other observations

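The order of Pklr and that of the enzymes within a group differed in some livers; the relation was not tested. PKLR replicate 4 had the lowest Pklr of the PKLR livers (389 CPM, against 801 to 945 CPM in the other 4) and the highest Sqle (80.06 CPM). shPKLR replicate 5 had the highest Pklr of its group (80.5 CPM) and the lowest median of the 9 enzymes, and GFP replicate 4, with 148 CPM of Pklr, had the lowest Sqle of all livers (4.13 CPM). In shLUC livers, by contrast, replicates 1 and 3 were the lowest for Pklr (366 and 343 CPM) and also for the median of the enzymes (-0.36 and -0.29).

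Of 8 listed genes that use, store, export or sense sterols, 4 (Cyp46a1, Cyp27a1, Abca1 and Nr1h3) had the signs of the enzymes in both experiments. Over all genes tested in both experiments, 31.3% had those signs. The log2 fold changes with shPKLR and PKLR were -0.24 and 0.33 for Cyp27a1, -0.22 and 0.06 for Abca1, and -0.05 and 0.03 for Nr1h3. No test compared the list with the enzymes. Over all genes, 1.19% were called higher with PKLR. With PKLR 1 was called: Cyp46a1, which hydroxylates cholesterol, rose to 9.10 ± 5.32 CPM with PKLR, against 2.08 ± 1.13 CPM with GFP (SD, n = 5 each; log2 fold change 2.15, SE 0.47, edgeR adjusted p = 0.0494); the call held in 2 of 10 fits with 1 liver left out. Its log2 fold change with shPKLR was -1.37 (SE 0.42, edgeR adjusted p = 0.238). Cyp7a1, the rate-limiting enzyme of bile acid synthesis, had log2 fold changes of -0.53 (SE 0.54, edgeR adjusted p = 0.622) with shPKLR and -1.02 (SE 0.62, edgeR adjusted p = 0.409) with PKLR, and ranged from 16.4 to 146 CPM within the GFP group alone. The sterol exporter genes Abcg5 and Abcg8 had log2 fold changes of 0.65 (SE 0.17) and 0.23 (SE 0.19) with shPKLR and -0.37 (SE 0.42) and -0.32 (SE 0.43) with PKLR, opposite in sign to the enzymes in both experiments, and passed in neither.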
